A study of Tabanus nipponicus with 3 samples.

Results

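The unigenes described here are those named for iron handling, heme metabolism and defence against oxidants in the midgut of Tabanus nipponicus, a blood-feeding horse fly. They were taken by name: a unigene, which is a transcript assembled from reads without a genome, belonged to the set when the name of its best protein hit held one of 20 word patterns, such as ferritin, transferrin, heme oxygenase, catalase, peroxiredoxin or thioredoxin. This gave 54 of the 8039 unigenes in the deposited table. Of these, 22 bear iron, heme or iron-sulfur names, 14 hold the word thioredoxin, 17 hold other redox names and 1 is a kinase matched by its letters alone. Each name comes from the most similar protein of another species, at a median identity of 71.9% for the members against 65.5% for all unigenes, and 19 of the 54 hits lie in the black soldier fly Hermetia illucens. The hit was aligned over at least 80% of its length for 43 members.

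RNA was sequenced from the dissected midguts of 3 adult females caught in the wild, with 1 library for each fly. They form 1 group of animals labelled wild type (WT) with no treatment, so the data give levels and the spread between individuals, not a contrast of conditions. Whether they had fed on blood, and how old they were, was not given in the sources used here. These individuals are called fly 1, fly 2 and fly 3, and any test over them measures the spread between these samples only.

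Iron is needed for heme and for iron-sulfur clusters, the cofactors of respiration and of many oxidases, but free iron and free heme turn peroxide into damaging radicals. Cells therefore store iron in ferritin cages, carry it bound to transferrin, build heme in a fixed chain of steps that starts and ends in the mitochondrion, and open the heme ring with heme oxygenase. Superoxide dismutases, catalase, peroxiredoxins and glutathione peroxidases remove the oxidants that remain. In the gut of a blood-feeding insect this chemistry is exposed to host hemoglobin, which releases heme and iron as it is digested.

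The level of each unigene is given in FPKM, a fragment number scaled to transcript length and library size, so that levels can be compared between unigenes of different length. Read numbers here were recovered from FPKM and length, not measured directly. Over the 8039 unigenes they summed to 31922570, 33797869 and 29308867 in flies 1 to 3. For members whose mean reached 5 FPKM the counting error from them was at most 10.2%, 9.71% and 9.49%. Fly 3 stood apart. The 10 most abundant unigenes took 33.4%, 38.2% and 24.6% of the summed FPKM in flies 1 to 3. Whether this bears on the levels of the other unigenes was not tested. The median unigene of fly 3 stood 0.42 above the average of flies 1 and 2 on the log2(FPKM + 1) scale. Median-of-ratios scaling, which sets the median unigene level between flies, divides the values by 0.976, 0.838 and 1.27 and brings this median to -0.01. Differences in fly 3 are read against this shift below. Summed name lists for some other tissues were also higher in fly 3: 13 muscle unigenes summed to 347, 379 and 774 FPKM in flies 1 to 3, 13 hemocyte unigenes to 67.7, 55.6 and 183, and 10 fat body unigenes to 7.08, 24.7 and 97.6, while 52 gut enterocyte unigenes summed to 15111, 15874 and 12824. Among those whose mean reached 1 FPKM, fly 3 was the highest for 12 of 13 in the muscle list. It was also highest for 9 of 11 in the hemocyte and 6 of 6 in the fat body list. In the enterocyte list this held for 21 of 48, and the share over all unigenes was 66.1%. The most abundant enterocyte name, trypsin Blo t 3-like (TRINITY_DN420_c0_g1_i4), was lowest in fly 3 at 4158, 6159 and 2090 FPKM. The next, maltase A3 (TRINITY_DN5820_c0_g1_i5), was highest there at 2211, 1550 and 2694. The word trypsin also matched inhibitor names such as antichymotrypsin. In the fat body list, 1 vitellogenin-1-like unigene was listed at 0 in fly 1. A Malpighian tubule list of 11 summed to 130, 188 and 302 FPKM, but to 130, 165 and 156 without uricase at 0.045, 23.2 and 146, and its most abundant member, xanthine dehydrogenase (TRINITY_DN6180_c0_g1_i3), was lowest in fly 3 at 69.9, 88.7 and 57.9. A salivary list of 5 summed to 13875, 9417 and 10427. The list for vertebrate blood matched 6 names with the word immunoglobulin and no hemoglobin subunit or serum albumin. These are names of leucine-rich repeat and immunoglobulin-like domain proteins and of an immunoglobulin-binding protein, not of immunoglobulins. All have their best hits in other flies, none in a vertebrate. The part of these tissues in the results below was not tested. In bulk tissue, fewer cells of a type and less RNA per cell cannot be told apart.

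The 54 members together made up 0.552%, 0.493% and 0.770% of the summed FPKM in flies 1 to 3, a mean of 0.605% ± 0.146 (SD, n = 3). Fly 3 was highest and fly 2 lowest. With the 10 most abundant unigenes left out of the total, the shares were 0.829%, 0.798% and 1.02%, in the same order of flies. When any name listed for the hit decided membership, not the first alone, the mean share was 0.715%. This added hypothetical protein PVAND_011997 (TRINITY_DN17066_c0_g1_i8) at 597, 459 and 1031 FPKM, and transmembrane protein 161B at 4.68, 5.35 and 5.80. Most members were well expressed: 51 of 54 reached an FPKM of 1 in all 3 flies, against 81.6% of all unigenes, and their median level was 26.6 FPKM against 8.69. A total of 15 members lay in the top 10% of the table. The largest part of the sum, 29.9%, came from the thioredoxin names, followed by ferritins with 18.5%, peroxiredoxins with 15.1% and transferrins with 12.0%, and heme synthesis took 4.82%.

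**Figure D1:**
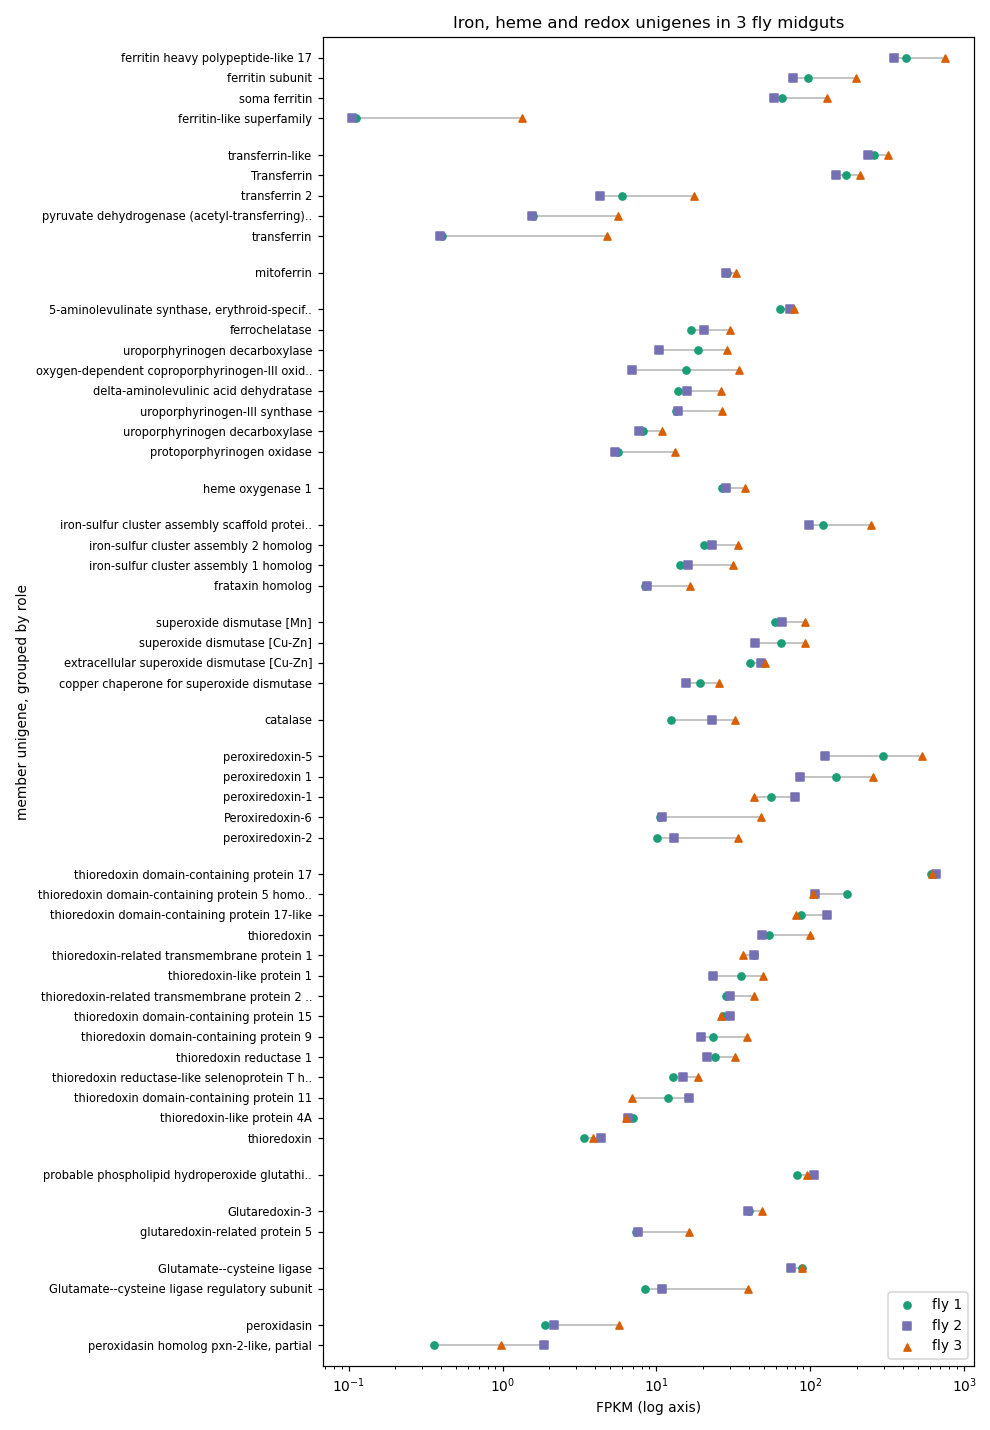
FPKM of each of the 54 members (horizontal log axis) in flies 1, 2 and 3 (circle, square and triangle), grouped by role and joined by a grey line from the lowest to the highest fly. The triangle of fly 3 lies to the right for nearly all iron, heme and iron-sulfur members, and thioredoxin domain-containing protein 17 shows 3 values close to 629 FPKM.

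Iron storage was led by a single unigene. Ferritin heavy polypeptide-like 17 (TRINITY_DN239_c0_g1_i7, 1408 bases) was at 419, 352 and 747 FPKM in flies 1 to 3 and held 70.8% of the ferritin sum. Its best hit, at 49.3% identity, is named as like the ferritin heavy chain, which oxidises iron as it enters the cage. Whether this unigene does so was not tested. Ferritin subunit (TRINITY_DN13317_c0_g1_i17, 2286 bases) was at 96.5, 77.1 and 198 FPKM. Soma ferritin (TRINITY_DN112_c0_g1_i24, 1964 bases) was at 65.2, 58.0 and 128 FPKM. All 3 were lowest in fly 2 and highest in fly 3, where they stood 1.94, 2.28 and 2.08 times above the mean of the other flies. After median-of-ratios scaling these values were 1.39, 1.64 and 1.49, so the direction was kept at a smaller size. The 3 ferritins kept their proportions from fly to fly: the heavy polypeptide stood at 4.34, 4.56 and 3.77 times the level of ferritin subunit and at 6.42, 6.06 and 5.83 times that of soma ferritin, a pair of ratios chosen after the values were seen.

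The remaining ferritin name, ferritin-like superfamily (TRINITY_DN16782_c0_g3_i1, 558 bases), has its best hit in the fungus Endogone at 37.3% identity. It was listed at 0.112, 0.106 and 1.35 FPKM, from 2, 2 and 22 reads. The values of flies 1 and 2 lie under the floor of 3 fragments, 0.337 and 0.318 FPKM. It is the member with the lowest mean, and removing it together with a kinase described below left the members' share at 0.605%.

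Iron carriage was represented by a pair of abundant transferrin unigenes. Transferrin-like (TRINITY_DN1150_c0_g1_i4, 1133 bases) was at 258, 236 and 319 FPKM, and Transferrin (TRINITY_DN1249_c0_g1_i15, 4075 bases) was at 171, 147 and 209 FPKM. Both were highest in fly 3 by less than 1.5-fold over the lowest fly, and after scaling both were highest in fly 2. Their ratio was 1.51, 1.60 and 1.53 in flies 1 to 3, chosen as a pair after the values were seen. The first was aligned to residues 12 to 208 of an 809-residue protein and the second to residues 197 to 795 of an 802-residue protein, and whether they are pieces of 1 transcript was not tested.

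The other transferrin names were far lower. Transferrin 2 (TRINITY_DN11500_c0_g1_i9, 3034 bases), whose Drosophila relative is a part of the septate junctions that seal epithelia, was at 6.01, 4.27 and 17.7 FPKM. Transferrin isoform X1 (TRINITY_DN5506_c0_g3_i1, 4442 bases) was at 0.402, 0.393 and 4.79 FPKM, from 57, 59 and 624 reads. Both were highest in fly 3, and stayed so after scaling, at 13.9 and 3.79. The fat body sum given above, led by apolipophorins at 0.619, 13.8 and 64.1 FPKM, was also highest in fly 3, and its part in these values was not tested. The remaining match was a pyruvate dehydrogenase (acetyl-transferring) kinase (TRINITY_DN7579_c0_g1_i14), which entered the set only through the letters of "transferring" and is no iron protein. It was at 1.58, 1.55 and 5.66 FPKM.

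Ferritins summed to 581, 487 and 1074 FPKM and transferrins to 436, 389 and 556, a ratio of 1.33, 1.25 and 1.93 in flies 1 to 3. Storage names thus exceeded carriage names in 3 of 3 flies, by a mean log2 ratio of 0.56 ± 0.34 (SD, n = 3). The exact sign-flip permutation test, two-sided, gave p = 0.25, the smallest it can give with 3 flies, and an adjusted p of 0.3125 over the 5 ratios tested. Without the most abundant unigene of each list the mean log2 ratio was 0.05, and it was likewise 0.05 when sums were weighted by length.

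Mitoferrin (TRINITY_DN495_c0_g1_i15, 2162 bases), the carrier that brings iron into the mitochondrion, was among the steadier members as deposited. It was at 28.8, 28.3 and 32.7 FPKM, a mean of 29.9 ± 2.43 (SD, n = 3). The highest fly exceeded the lowest by 1.16-fold, and after scaling fly 3 was the lowest at 25.9.

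Heme synthesis was covered at 7 steps by 8 unigenes, and no name in the table held the word porphobilinogen, so the step between aminolevulinic acid dehydratase and uroporphyrinogen-III synthase is not described. The first step was by far the most abundant. 5-aminolevulinate synthase (TRINITY_DN6021_c0_g1_i15, 1997 bases), which makes the committed precursor of heme and whose best hit carries the vertebrate label erythroid-specific, was at 63.1, 73.2 and 78.5 FPKM, a mean of 71.6 ± 7.84 (SD, n = 3). It made up 40.7%, 47.7% and 31.6% of the heme synthesis sum. Its highest and lowest fly differed by 1.24-fold, the narrowest range of the 7 steps, and by 1.41-fold after scaling, next to 1.42-fold for ferrochelatase.

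The following steps ran lower and varied more. Delta-aminolevulinic acid dehydratase (TRINITY_DN2135_c0_g1_i1) was at 13.8, 15.9 and 26.2 FPKM, and uroporphyrinogen-III synthase (TRINITY_DN41317_c0_g1_i4) at 13.3, 13.7 and 26.6. Uroporphyrinogen decarboxylase was named for a pair of unigenes that share 1 best hit (TRINITY_DN821_c0_g1_i17 and TRINITY_DN2001_c0_g1_i1), and their sum was 26.7, 18.1 and 39.4 FPKM. Flies 1 and 2 were close at the earlier of these steps, and fly 3 was highest at each. How reads were divided between the decarboxylase pair is not shown by the table.

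Oxygen-dependent coproporphyrinogen-III oxidase (TRINITY_DN8936_c0_g1_i5, 1853 bases), which acts late in the chain, differed most between flies, at 15.6, 6.91 and 34.4 FPKM. Protoporphyrinogen oxidase (TRINITY_DN3580_c0_g1_i1) was the lowest step at 5.63, 5.39 and 13.2 FPKM. Ferrochelatase (TRINITY_DN3182_c0_g1_i27), which inserts iron into the finished ring, was at 16.7, 20.4 and 29.9 FPKM. All 8 heme synthesis unigenes were highest in fly 3, against 66.1% of all unigenes, and 5 of 8 were after scaling, against 39.3%. The ratio of the first enzyme to the second, chosen after the values were seen, was 4.56, 4.61 and 3.00 in flies 1 to 3, a value that scaling between flies cannot move.

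**Figure D2:**
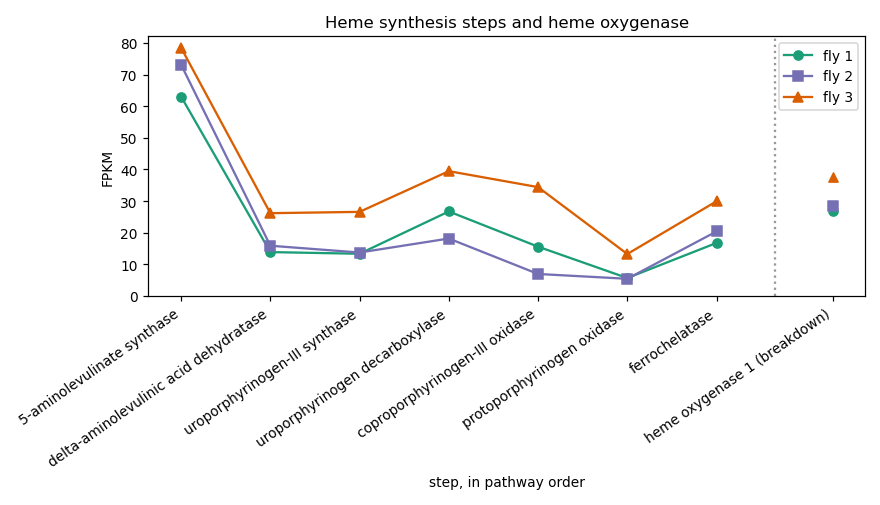
FPKM (vertical axis, from 0) at 7 steps of heme synthesis in pathway order, with lines for flies 1 to 3, and heme oxygenase 1 to the right of the dotted line. The first step lies above all later ones in each fly, and the flies are furthest apart at coproporphyrinogen-III oxidase, from 6.91 to 34.4 FPKM.

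Heme breakdown rested on 1 unigene, heme oxygenase 1 (TRINITY_DN1415_c0_g1_i1, 803 bases), at 26.8, 28.4 and 37.5 FPKM. Fly 3 was highest as deposited and fly 2 after scaling. The summed synthesis steps stood at 5.77, 5.41 and 6.62 times its level in flies 1 to 3, a mean log2 ratio of 2.56 ± 0.15 (SD, n = 3), above 0 in 3 of 3 flies (exact sign-flip permutation test, two-sided, p = 0.25, adjusted p = 0.3125). This sets 8 unigenes against 1, with sums weighted by length the mean log2 ratio was 3.74, and 6 of the 7 single steps had a mean below that of heme oxygenase 1, 30.9 FPKM.

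Iron-sulfur cluster assembly was led by the scaffold IscU (TRINITY_DN7847_c0_g2_i3, 757 bases), on which clusters are built. It was at 121, 98.5 and 249 FPKM and held 73.0% of the sum of its group. Iron-sulfur cluster assembly 2 homolog (TRINITY_DN33593_c0_g2_i1), a protein of the later transfer steps, was at 20.5, 22.9 and 33.9 FPKM, and iron-sulfur cluster assembly 1 homolog (TRINITY_DN7428_c0_g2_i1) at 14.3, 16.1 and 31.5. Frataxin homolog (TRINITY_DN3548_c0_g1_i1), which promotes cluster formation on the scaffold, was the lowest at 8.47, 8.65 and 16.6 FPKM. All 4 were highest in fly 3, against 66.1% of all unigenes, and 3 of 4 after scaling, against 39.3%, the exception being iron-sulfur cluster assembly 2 homolog.

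Cysteine desulfurase (TRINITY_DN5048_c0_g1_i4), the enzyme that supplies sulfur to IscU and no member of the set, was at 47.5, 38.5 and 79.4 FPKM. IscU stood at 2.54, 2.56 and 3.14 times its level, a ratio chosen after the values were seen. Among 12 iron-sulfur unigenes outside the set, it had the highest level, followed by iron-sulfur protein NUBPL (TRINITY_DN13570_c0_g1_i7) at 14.7, 15.5 and 16.2 FPKM. Of the 12, 0 differed 4-fold between flies, against 9.42% of all unigenes, and 10 were highest in fly 3, against 66.1%.

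Superoxide dismutases were present for each compartment. Superoxide dismutase [Mn] (TRINITY_DN1498_c0_g1_i2, 837 bases), the mitochondrial form, was at 58.9, 65.5 and 92.6 FPKM. Superoxide dismutase [Cu-Zn] (TRINITY_DN6070_c0_g2_i3, 2996 bases), the form of the cytosol, was at 64.2, 43.5 and 92.1 FPKM. Both were highest in fly 3, but fly 2 was the lowest for the Cu-Zn form and fly 1 for the Mn form. Their ratio was 1.09, 0.663 and 0.994, a mean log2 ratio of -0.16 ± 0.38 (SD, n = 3), above 0 in 1 of 3 flies (exact sign-flip permutation test, two-sided, p = 0.75, adjusted p = 0.75). No direction can be given, since without fly 2 the mean log2 ratio was 0.06 and with levels weighted by length it was 1.68.

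Extracellular superoxide dismutase [Cu-Zn] (TRINITY_DN10985_c0_g1_i5), a secreted form, was at 40.6, 47.5 and 50.6 FPKM. Its highest and lowest fly differed 1.24-fold as deposited, less than for the Mn and Cu-Zn forms, but 1.42-fold after scaling, against 1.30-fold and 1.40-fold for those. Copper chaperone for superoxide dismutase (TRINITY_DN185_c0_g1_i5), which loads copper into the Cu-Zn enzyme, was at 19.2, 15.6 and 25.5 FPKM. As for the cytosolic enzyme, fly 2 was lowest and fly 3 highest. After scaling the chaperone stood at 19.6, 18.7 and 20.1, the narrowest range of the 4 names.

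Among enzymes that remove peroxide, the 5 peroxiredoxins, which use a cysteine, together exceeded catalase, which uses heme. Peroxiredoxin-5 (TRINITY_DN5643_c0_g1_i6, 1358 bases) was at 296, 125 and 531 FPKM and peroxiredoxin 1 (TRINITY_DN1106_c0_g1_i2, 1550 bases) at 147, 86.0 and 255. For both, fly 2 was lowest and fly 3 highest, with fly 1 well apart from either. After scaling the order of the flies was kept, at 303, 149 and 419 for peroxiredoxin-5.

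A further unigene named peroxiredoxin-1 (TRINITY_DN5943_c0_g1_i11, 1948 bases) ran the other way, at 55.8, 79.95 and 43.3 FPKM, with fly 2 highest and fly 3 lowest. Peroxiredoxin-6 (TRINITY_DN12910_c0_g1_i1, 1052 bases) was at 10.6, 10.9 and 48.0 FPKM, and peroxiredoxin-2 (TRINITY_DN11428_c0_g1_i1) at 10.01, 12.95 and 33.6. In both of these flies 1 and 2 lay close together and fly 3 was well above. The 5 peroxiredoxins thus showed 3 orders of flies. Of the 5, 4 were highest in fly 3 as deposited, against 66.1% of all unigenes, and 4 after scaling, against 39.3%.

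Catalase (TRINITY_DN2775_c0_g1_i14, 2992 bases) was at 12.4, 22.9 and 32.4 FPKM, lowest in fly 1, and after scaling fly 2 was highest at 27.3. Peroxiredoxins summed to 519, 315 and 910 FPKM, or 41.7, 13.7 and 28.1 times the catalase level, a mean log2 ratio of 4.66 ± 0.81 (SD, n = 3). The ratio was above 1 in 3 of 3 flies (exact sign-flip permutation test, two-sided, p = 0.25, adjusted p = 0.3125). This sets 5 unigenes against 1: Peroxiredoxin-6 and peroxiredoxin-2, with means of 23.2 and 18.9 FPKM, were near the catalase mean of 22.6, and with sums weighted by length the mean log2 ratio was 3.65. Fly 2 combined the lowest peroxiredoxin sum with a middle catalase level and had the lowest ratio.

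The single glutathione peroxidase, named for the form that acts on phospholipid hydroperoxides (TRINITY_DN6760_c0_g1_i22, 1233 bases), was at 82.2, 106 and 95.6 FPKM, with fly 2 highest. It stood at 0.158, 0.338 and 0.105 of the peroxiredoxin sum, a mean log2 ratio of -2.49 ± 0.86 (SD, n = 3), below 0 in 3 of 3 flies (exact sign-flip permutation test, two-sided, p = 0.25, adjusted p = 0.3125). This sets 1 unigene against 5. Its mean of 94.7 FPKM lay below peroxiredoxin-5 and peroxiredoxin 1, at 317 and 162. It lay above peroxiredoxin-1, Peroxiredoxin-6 and peroxiredoxin-2, at 59.7, 23.2 and 18.9. As deposited, the highest and lowest fly differed 1.29-fold for the glutathione peroxidase and 2.89-fold for the peroxiredoxin sum. After scaling these were 1.68-fold and 1.91-fold.

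**Figure D3:**
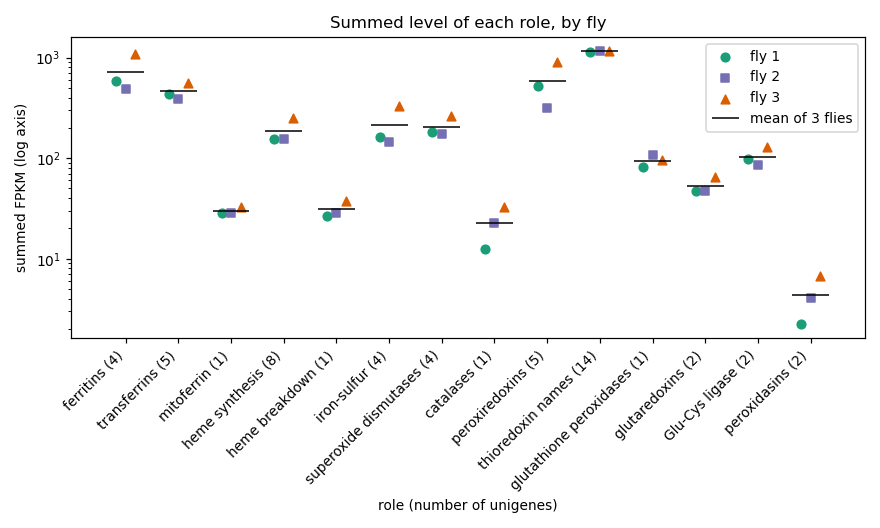
Summed FPKM (vertical log axis) of each role in flies 1 to 3, with the number of unigenes in brackets and a bar at the mean of the 3 flies. Ferritins, iron-sulfur names and peroxiredoxins spread most among the abundant roles, and the thioredoxin names gave 1139, 1152 and 1165 FPKM.

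The 14 thioredoxin names gave nearly the same sum in each fly, 1139, 1152 and 1165 FPKM (1152 ± 12.8, SD, n = 3), or 0.181%, 0.181% and 0.182% of all FPKM. This evenness belongs to the values as deposited. After scaling the sums were 1167, 1375 and 920, with fly 3 lowest. The name thioredoxin covers proteins of different function that share a fold, and few of the 14 are thioredoxins in the strict sense.

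The sum was led by thioredoxin domain-containing protein 17 (TRINITY_DN436_c0_g1_i4, 994 bases), a small cytosolic disulfide reductase, at 610, 659 and 619 FPKM. Its mean of 629 ± 26.1 (SD, n = 3) was the highest of all 54 members and rank 136 of the table, and its hit in Hermetia illucens was 91.3% identical over the full 126 residues. A relative, thioredoxin domain-containing protein 17-like (TRINITY_DN25912_c0_g1_i1), was at 87.4, 128 and 81.2 FPKM. Fly 2 was highest for both.

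Thioredoxins and their reductase were lower. A mitochondrial thioredoxin (TRINITY_DN5634_c0_g1_i5) was at 53.5, 48.7 and 99.3 FPKM, and a second unigene of that name (TRINITY_DN18204_c0_g1_i1) at 3.38, 4.35 and 3.86. Thioredoxin reductase 1 (TRINITY_DN1237_c0_g1_i8), which recharges thioredoxin with NADPH and in Drosophila also stands in for glutathione reductase, was at 24.1, 21.4 and 32.6 FPKM. The reductase came to 24.6, 25.5 and 25.7 after scaling, and the more abundant thioredoxin stayed highest in fly 3, at 78.4.

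Several names of the endoplasmic reticulum had fly 3 as their lowest fly. Thioredoxin domain-containing protein 5 homolog (TRINITY_DN2634_c1_g1_i6), a protein disulfide isomerase, was at 173, 107 and 104 FPKM. Thioredoxin-related transmembrane protein 1 (TRINITY_DN9107_c0_g2_i5) was at 42.7, 42.8 and 36.3, and thioredoxin domain-containing protein 11 (TRINITY_DN9883_c0_g1_i21), known in mammals as a partner of dual oxidases, at 11.9, 16.2 and 6.90. Another membrane protein of that compartment, thioredoxin-related transmembrane protein 2 homolog (TRINITY_DN6485_c0_g1_i4), went the other way at 28.3, 30.2 and 42.8 FPKM, and the selenoprotein T homolog (TRINITY_DN3315_c0_g1_i5) was at 12.7, 14.9 and 18.7. After scaling the first 3 remained lowest in fly 3 and the last 2 were highest in fly 2.

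The remaining 4 thioredoxin-fold names were thioredoxin-like protein 1 (TRINITY_DN5633_c0_g1_i7), which binds the proteasome, thioredoxin domain-containing protein 9 (TRINITY_DN3869_c0_g1_i10), thioredoxin domain-containing protein 15 (TRINITY_DN15186_c0_g1_i5) and thioredoxin-like protein 4A (TRINITY_DN1295_c0_g1_i14), a spliceosome component. Their means were 35.8, 27.2, 27.9 and 6.63 FPKM. The first 2 were highest in fly 3 both as deposited and after scaling, and the last 2 were lowest in fly 3. The hit of thioredoxin-like protein 4A, in Musca domestica, was 100% identical over all 142 residues, the highest identity of any member.

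Glutathione supply showed an uneven pair. Glutamate--cysteine ligase (TRINITY_DN5132_c0_g1_i1, 2226 bases), the catalytic subunit of the enzyme that limits glutathione synthesis, was at 88.7, 74.8 and 88.6 FPKM. Its regulatory subunit (TRINITY_DN1697_c0_g1_i4, 2591 bases) was at 8.43, 10.9 and 39.3 FPKM. Flies 1 and 3 were level for the catalytic subunit, while for the regulatory subunit fly 3 stood 4.06 times above the mean of the others. The ratio of the first to the second was 10.5, 6.85 and 2.25 in flies 1 to 3, a pair chosen after the values were seen and a ratio within a library that scaling between flies cannot move.

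Glutaredoxins, which use glutathione to reduce disulfides or to hand on iron-sulfur clusters, were represented by a pair. Glutaredoxin-3 (TRINITY_DN4863_c0_g1_i3) was at 39.6, 39.2 and 48.1 FPKM. Glutaredoxin-related protein 5 (TRINITY_DN4660_c0_g1_i8), the mitochondrial form that serves iron-sulfur assembly, was at 7.38, 7.62 and 16.2 FPKM. Both were highest in fly 3 as deposited, and after scaling glutaredoxin-related protein 5 alone was.

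Peroxidasins, secreted heme peroxidases that cross-link collagen of the basement membrane, were the lowest role. Peroxidasin (TRINITY_DN4868_c0_g1_i2, 6717 bases) was at 1.87, 2.17 and 5.70 FPKM. Peroxidasin homolog pxn-2-like (TRINITY_DN18267_c0_g1_i1, 697 bases) was at 0.36, 1.87 and 0.979 FPKM, from 8, 44 and 20 reads. The first was highest in fly 3 and the second in fly 2.

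Across the 48 members whose mean reached 5 FPKM, 4 differed at least 4-fold in FPKM + 1 between the highest and the lowest fly, against 9.42% of all unigenes. These were coproporphyrinogen-III oxidase at 4.47-fold, the regulatory subunit of glutamate--cysteine ligase at 4.28-fold, Peroxiredoxin-6 at 4.22-fold and peroxiredoxin-5 at 4.22-fold, and just under the threshold lay transferrin 2 at 3.54-fold and peroxiredoxin-2 at 3.15-fold. The share, 8.33%, was near that of the whole table. All 4 had their highest value in fly 3. After median-of-ratios scaling 0 of 48 members passed, against 7.63% of all unigenes, and the 4 stood at 3.04, 3.33, 3.28 and 2.80-fold. Without fly 3 there were 0 calls, without fly 2 there were 2 and without fly 1 there were 3. The share over all unigenes was not computed with a fly left out, so these counts are not read as a result about the members.

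At the other end, 17 of 48 members stayed within 1.5-fold, against 40.4% of all unigenes, and after scaling 24 of 48 did, against 48.1%. As deposited, the steadiest in FPKM + 1 were thioredoxin domain-containing protein 17 at 1.08-fold, thioredoxin-like protein 4A at 1.10-fold and thioredoxin domain-containing protein 15 at 1.14-fold. After scaling these stood at 1.61, 1.47 and 1.69-fold, and the steadiest were thioredoxin reductase 1 at 1.04-fold and Transferrin at 1.07-fold. The median SD of log2(FPKM + 1) between flies was 0.49 for members with a mean of at least 1 and 0.38 for all such unigenes. After scaling the medians were 0.33 and 0.32.

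**Figure D4:**
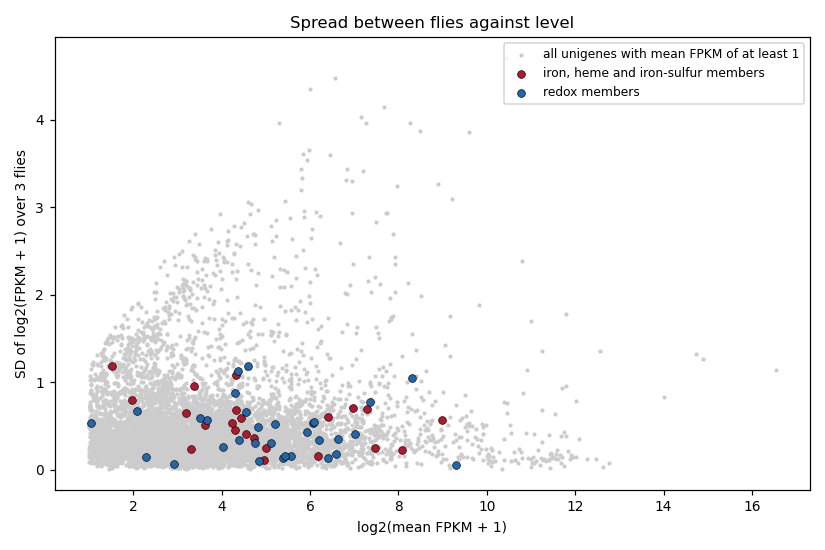
SD of log2(FPKM + 1) over the 3 flies (vertical) against log2 of the mean FPKM + 1 (horizontal) for each unigene whose mean reached 1 FPKM (grey), with iron, heme and iron-sulfur members in red and redox members in blue. The members lie within the grey cloud, with a median SD of 0.49, and none reaches the upper part of it.

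Fly 3 was the highest fly for 41 of the 53 members with a mean of at least 1, against 66.1% of all unigenes. Fly 2 was highest for 9, against 12.4%, and fly 1 for 3, against 21.6%. Fly 2 was the lowest for 24 of 53, against 57.5%. In fly 3, 8 of 48 members stood at least 2-fold above both other flies, against 11.1%, and 0 stood at least 2-fold below both, against 1.26%, by a rule of fold alone with no test. The 8 were transferrin 2, ferritin subunit, IscU, coproporphyrinogen-III oxidase, protoporphyrinogen oxidase, Peroxiredoxin-6, peroxiredoxin-2 and the regulatory subunit of glutamate--cysteine ligase.

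The roles divided unevenly. Without the kinase, all 21 iron, heme and iron-sulfur members with a mean of at least 1 were highest in fly 3, against 66.1% of all unigenes. So were 13 of 17 redox members outside the thioredoxin names and 6 of 14 thioredoxin names. After scaling the numbers were 13 of 21, 9 of 17 and 4 of 14, or 27 of 53 with the kinase, against 39.3% of all unigenes. The median difference between fly 3 and the average of the others was 0.67 for members on the log2(FPKM + 1) scale, and 0.42 for all unigenes, and 0.20 against -0.01 after scaling. In fly 1 the medians were -0.27 for members and -0.05 for all, and in fly 2 -0.36 and -0.33. The 22 iron, heme and iron-sulfur members, those below 1 FPKM included, had a median of 0.94 in fly 3, or 0.47 after scaling, and the thioredoxin names had -0.01, or -0.44 after scaling. The muscle list, which was likewise higher in fly 3, had a median of 0.96 as deposited, and its part in these values was not tested.

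**Figure D5:**
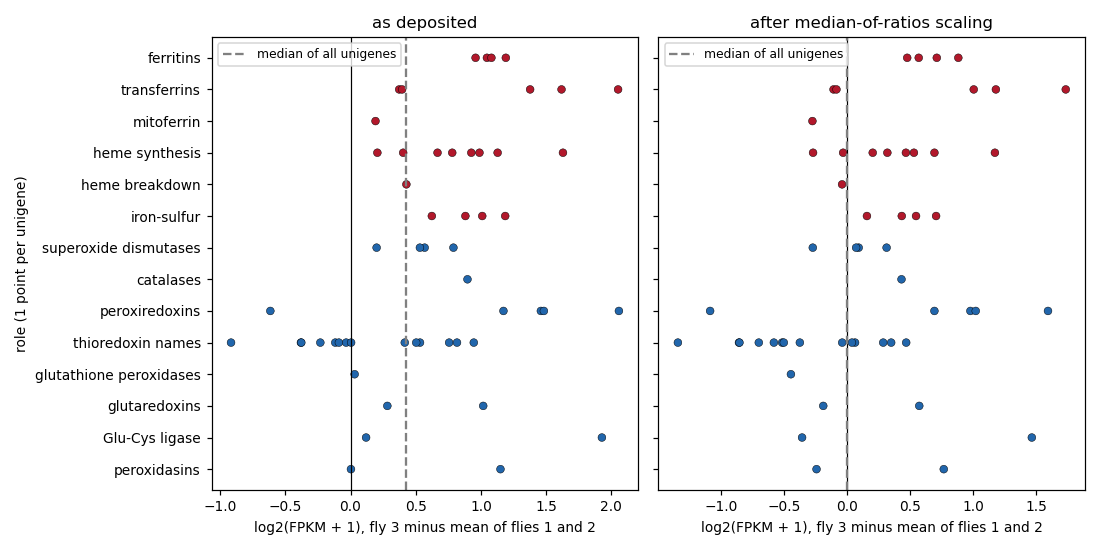
Difference of log2(FPKM + 1) between fly 3 and the mean of flies 1 and 2 (horizontal), 1 point per member in rows by role, as deposited (left) and after median-of-ratios scaling (right), with the median of all unigenes dashed, at 0.42 and -0.01. Ferritins and iron-sulfur members lie to the right of the dashed line in both panels, and the thioredoxin names spread to both sides of it.

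Further genes of the same pathways were read from name lists outside the set. Of 9 unigenes for cellular iron transport and sensing, probable aconitate hydratase of the mitochondrion (TRINITY_DN434_c0_g1_i1), an iron-sulfur enzyme of the citric acid cycle, was at 74.4, 77.1 and 105 FPKM, and cytoplasmic aconitate hydratase-like (TRINITY_DN10_c1_g1_i12), whose relative senses iron in mammals, at 30.6, 29.6 and 27.2. The list also held protein Malvolio (TRINITY_DN3254_c0_g1_i18), an iron importer of the gut in Drosophila, at 9.32, 15.6 and 24.5 FPKM, and zinc transporter ZIP13 homolog (TRINITY_DN6976_c0_g1_i2), which in Drosophila brings iron to the secretory pathway, at 12.1, 7.63 and 26.7. These 2 were chosen after their values were seen. Of the 8 whose mean reached 5 FPKM, 1 differed 4-fold, against 9.42% of all unigenes. It was cytochrome b561 domain-containing protein 2-like (TRINITY_DN7790_c0_g1_i3) at 0.223, 1.58 and 15.1 FPKM.

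Of 10 unigenes for heme transport and heme proteins, cytochrome b5 (TRINITY_DN11478_c0_g2_i7), an electron carrier, was highest at 72.6, 69.1 and 91.8 FPKM, followed by cytochrome b561-like (TRINITY_DN5635_c0_g1_i5) at 28.5, 26.6 and 19.4. Besides the cytochrome b561 name above, which falls in both lists, cytochrome b5-related protein-like (TRINITY_DN11191_c0_g1_i14) at 4.54, 12.99 and 40.3 FPKM and cytochrome b5 isoform X2 (TRINITY_DN9569_c0_g1_i1) at 3.22, 3.19 and 18.0 differed 4-fold. These were 3 of the 9 in this list whose mean reached 5 FPKM, against 9.42% of all unigenes. All 3 were highest in fly 3, against 66.1% of all unigenes.

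Glutathione and NADPH supply held 9 unigenes. Of the 8 whose mean reached 5 FPKM, 0 differed 4-fold, against 9.42% of all unigenes. Glutathione synthetase-like (TRINITY_DN630_c0_g1_i11), the enzyme after glutamate--cysteine ligase, was at 49.5, 37.0 and 72.6 FPKM, and 6-phosphogluconate dehydrogenase (TRINITY_DN1004_c0_g1_i8), which makes NADPH, at 36.2, 37.7 and 58.5. Of 10 unigenes for oxidant repair, sensing and sources, the regulator cap'n'collar (TRINITY_DN987_c0_g1_i3), the insect relative of Nrf2, was highest at 33.4, 29.0 and 50.9 FPKM. A peroxidase (TRINITY_DN3933_c0_g1_i8) was at 2.32, 8.88 and 70.8 FPKM and a peroxidase-like unigene (TRINITY_DN11386_c0_g1_i3) at 28.2, 0.0603 and 0.258. These 2 differed 4-fold in opposite directions, out of 5 whose mean reached 5 FPKM, against 9.42% of all unigenes. The pathway lists are too small for such counts to be read as a result about them.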

How the data were processed

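RNA sequencing values of 3 midguts, 1 library per fly, were taken as FPKM, which the authors deposited in 1 table of 8039 assembled unigenes, per the file headers. The column of fly 3 carries the number 4 and was matched through the labels' description. The deposited table also gives the percent of identical residues, alignment positions and unigene length, per the file headers. For the assembler, aligner, counting tool and protein search, name and version were not given in the sources used here. FPKM times length summed to 1e+09 in each fly. Divided by its smallest positive value, taken as 1 read, it came out as whole reads, within 0.001, for 97.1%, 97.3% and 97.3% of unigenes. Precision is given as counting error alone, and floors are 3 fragments (6 reads) per fly.

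Members were matched on the first title of the best hit and given 1 role each. Levels were compared as log2(FPKM + 1), which understates differences of low unigenes. Filters were a mean FPKM of 1 or 5. With 1 group, no count model was fitted. The 5 ratios of summed FPKM were tested by an exact sign-flip permutation test with Benjamini-Hochberg adjustment. Named were the 3 most abundant members of each role, every member of roles with up to 4, every member that differed 4-fold, and in other pathway lists the 2 most abundant and those that differed 4-fold. The other members are named for completeness. From the pathway lists, 3 names that matched by letters alone or have another function were removed after they were seen. Members and lists were chosen with earlier results of these data known. Scripts, run with Python 3.11.15, numpy 2.4.6, pandas 2.3.3 and matplotlib 3.10.9, were tested on simulated data. Alternatives were median-of-ratios scaling, other pseudocounts, filters, folds and weights, any title, and each fly left out.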

Additional observations from a re-analysis of the deposited data

How the results depend on the processing

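Of 85 recomputed values for the members as a set, 75 kept their direction and, for values without a test, stayed within the spread between flies (within 1.5 times for the count of members). Ratios were judged by direction and threshold alone, and some moved by more than their SD: ferritins to transferrins was 0.05 on the log2 scale without the top member of each list or weighted by length, and with that weighting heme synthesis to breakdown was 3.74 and peroxiredoxins to catalases 3.65. The share of FPKM was 0.883% once the 10 most abundant unigenes were left out of the total, and 0.715% when any title decided membership. The number of members that differed 4-fold was 0 after median-of-ratios scaling, 20 at 2-fold, and 0 to 3 with a fly left out. At 2-fold and with a fly left out, the share over all unigenes was not computed. Those counts are not read as a result about the members. The median SD between flies ran from 0.15 to 0.49 with a fly left out, lowest without fly 3. The median shift in fly 2 was 0.0497 after scaling and ran from -0.58 to 0.0146 with a fly left out, positive without fly 3. The log2 ratio of Cu-Zn to Mn superoxide dismutase was 1.68 when weighted by length and ran from -0.30 to 0.0576 with a fly left out, positive without fly 2. The cause was not tested. Leaving out the most abundant member gave a value for ferritins against transferrins only, since the other ratios contain a list of 1 unigene. Scaling between flies leaves shares and ratios as they are by construction. The any-title setting added no unigene to the lists of the ratios. Leaving out the fungal hit and the kinase changed only ferritins to transferrins among the ratios. Such values could not move, and they are counted among the 75. Some single means leaned on fly 3, without which Peroxiredoxin-6 went from 23.2 to 10.8 FPKM and transferrin isoform X1 from 1.86 to 0.397. Others hardly moved or rose, such as the glutathione peroxidase from 94.7 to 94.3 and peroxiredoxin-1 from 59.7 to 67.9. The settings without the fungal hit or the kinase, the shift relative to all unigenes and the recomputed member means were chosen after seeing the data. No paired analysis was possible because there is 1 group. With 3 flies no ratio test could go below p = 0.25 in an exact permutation test, and members under 1 FPKM rest on few reads.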
